A study of Mus musculus with 15 samples.

Results

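The genes for the subunits, activators and assembly factors of the mouse proteasome were followed across 15 RNA-seq libraries of sorted lung cells. The set holds every gene whose symbol starts with Psma to Psmg and a number, which is 49 of the 21110 genes listed. It comprises 8 genes of the alpha ring, 4 structural genes of the beta ring, 3 constitutive and 3 immunoproteasome catalytic genes, 1 thymus-type catalytic gene, 6 ATPase and 11 non-ATPase genes of the regulatory cap, 7 assembly chaperones (4 of the core and 3 of the cap), 4 activators and 1 inhibitor. The remaining match, Psmc3ip, encodes a meiotic recombination partner and is no subunit. Psma8, the testis form of an alpha subunit, was listed at 0 in all 15 libraries, and the other 48 genes were tested.

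The proteasome is the barrel-shaped protease that degrades ubiquitin-tagged proteins in the cytosol and nucleus. A core of alpha and beta rings holds the catalytic sites, and a cap of ATPase and non-ATPase subunits binds, unfolds and feeds the substrate. Interferon signals make immune cells replace the constitutive catalytic subunits Psmb5, Psmb6 and Psmb7 by Psmb8, Psmb9 and Psmb10, and raise the activator PA28 (Psme1 and Psme2), which changes the peptides supplied to MHC class I.

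All mice carried the strain label C57BL6/J and all cells came from the lung. The naive groups were untreated. The papain groups had received 50 ug of papain per mouse through the nose on 3 days in a row, a plant protease that provokes type 2 airway inflammation. The gate for basophils was FceR1+ CD49b+ c-kit-, that for natural helper (NH) cells, a type 2 innate lymphoid population, was Lineage- Thy1.2+ IL7Ra+ CD25+, and that for eosinophils was SiglecF+ Gr1lo without autofluorescence. There were 2 libraries each of naive and papain basophils, naive and papain NH cells, naive eosinophils, and papain eosinophils sorted as CD11c- and as CD11c+. The eighth group was 1 library of papain NH cells labelled 3'UTRKO, whose altered gene is not named in the sources used here. No source says whether replicates came from separate mice or pools, so the spread behind each p-value is that between these libraries and may be technical. Age is not given in the sources used here.

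Expression was given as FPKM (fragments scaled to transcript length and library size), a level per length, so genes can be compared with each other. Total FPKM per library ranged from 374841 to 570208, and 9995 to 13049 genes were above 0; read depth is unknown. Small RNA genes took between 6.48% and 25.4% of the total, most in naive NH cells (25.4% and 21.1%, against 13.5% and 11% after papain). Each naive group had the highest sums of its own marker list among the naive groups, with 2350 and 4592 FPKM for 12 NH markers in naive NH cells and 570 and 2868 for 10 eosinophil markers in naive eosinophils. In the papain basophil libraries the summed FPKM of 10 basophil markers was 702 and 2108 against 6739 and 5872 in naive ones, with no marker at 0, and 8 of the 10 were called lower. The 8 neutrophil markers summed to between 6483 and 16568 FPKM in the 6 eosinophil libraries, above the eosinophil markers in each, and 12 epithelial markers to 6702 and 8771 in naive basophils, near or above the basophil markers. Scgb1a1 alone gave 6363 and 8531 FPKM of that epithelial sum, so the sum does not describe the list as a whole. In bulk RNA, fewer cells of a type and less RNA per cell cannot be told apart.

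Most proteasome genes were expressed everywhere, with core subunits and PA28 at the top and chaperones at the bottom. Across the 15 libraries the median level was highest for Psme1 (117 FPKM, range 81 to 169) and Psme2 (107, range 70 to 255), the PA28 alpha and beta subunits. Among core genes, Psmb4 (median 97 FPKM) and Psma2 (94) led, and among cap genes Psmd8 (54) and Psmd4 (46), the latter a ubiquitin receptor. Of the constitutive catalytic genes, Psmb7 (trypsin-like site) had a median of 73 FPKM, Psmb5 (chymotrypsin-like site) 53 and Psmb6 (caspase-like site) 47. Their immune replacements were lower, with 40 FPKM for Psmb8, 19 for Psmb9 and 18 for Psmb10. The inhibitor PI31 (Psmf1) had a median of 3 FPKM, and the core chaperones Psmg1, Psmg2 and Psmg3 had medians of 6, 7 and 5. Psmb11, the thymus-type catalytic subunit, stayed between 0 and 3 FPKM.

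The whole set added up to 1484 and 962 FPKM in naive basophils and to 2610 and 2345 in papain basophils. In NH cells the sums were 1341 and 1643 naive and 1983 and 2165 after papain. Naive eosinophils gave 1776 and 1682, CD11c- papain eosinophils 1625 and 2000, and CD11c+ papain eosinophils 2308 and 2479. The papain sums lay above the naive ones without overlap in basophils, NH cells and CD11c+ eosinophils, and overlapped them in CD11c- eosinophils. The 3'UTRKO papain library, at 1385 FPKM, lay between the naive NH libraries. Of the 48 expressed genes, 45 had their highest value only in papain libraries, and naive basophil replicate 2 held the lowest value (ties included) of 35. Most of the libraries are papain libraries, and the share of all genes was not counted for either number.

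**Figure D1:**
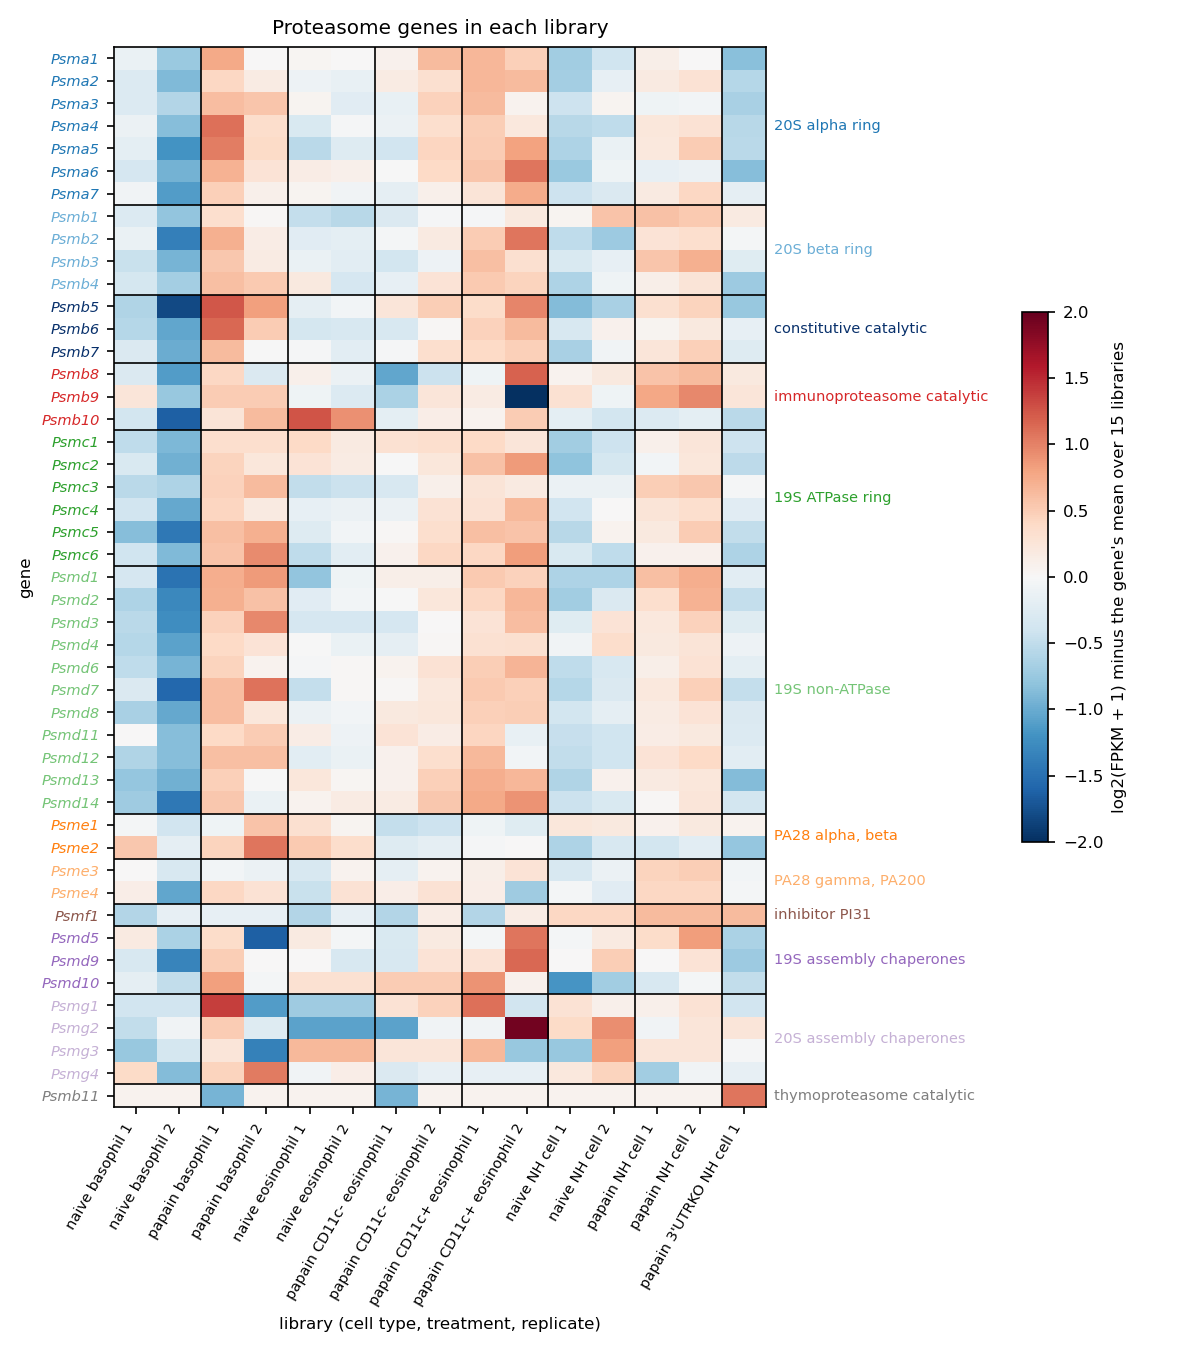
Heat map of the 47 expressed proteasome genes without Psmc3ip (rows, grouped by role) in the 15 libraries (columns); the colour is log2(FPKM + 1) minus the gene's mean over the 15 libraries, red above and blue below it. Core and cap genes are blue in both naive basophil libraries, most in replicate 2, and red in both papain basophil libraries.

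The genes that varied most were catalytic or chaperone genes, and 2 activators varied least. The largest spans, of Psmd5 (12-fold), Psmb9 (10.7-fold), Psmg2 (10.3-fold) and Psmd9 (10-fold), started from values of 1 or 3 FPKM, where rounding weighs most. Psmb5 spanned 8.92-fold, from 12 FPKM in naive basophil replicate 2 to 107 in papain basophil replicate 1. Psmb10 spanned 8.5-fold, from 6 FPKM in naive basophil replicate 2 to 51 in naive eosinophil replicate 1. The nuclear activator PA28 gamma (Psme3) spanned 1.79-fold, from 19 to 34 FPKM, and Psme1 spanned 2.09-fold.

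Papain basophils had more RNA for the core and the cap of the proteasome than naive basophils. By limma on log2(FPKM + 1), with Benjamini-Hochberg adjustment over 14257 genes and a threshold of 0.05, 27 of 48 genes rose and 0 fell. Of all genes tested, 22.1% rose and 3.88% fell. The risen genes were 5 of 7 alpha ring genes, 3 of 4 structural beta ring genes, 2 of 3 constitutive catalytic genes, 1 of 3 immunoproteasome genes, all 6 ATPases and 10 of 11 non-ATPase genes. Core and cap genes thus gave 26 of 31, and the other 17 members 1. The median log2 difference was 1.01 over the 48 genes and 0.50 over all genes, so about 0.51 of it lay beyond the general shift. In 37 of 48 genes both papain libraries lay above both naive ones, against 37.5% of all genes, and in 0 both lay below, against 8.91%.

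Psmb5, which carries the chymotrypsin-like site, changed most. Its level was 29 and 12 FPKM naive and 107 and 79 in papain basophils. The groups did not overlap, and the log2 rise was 2.23 ± 0.37 (SE, limma, adjusted p = 0.00396). Psmb6, with the caspase-like site, went from 31 and 22 to 104 and 66 FPKM, a log2 rise of 1.63 ± 0.26 (limma, adjusted p = 0.0034). Psmb7, with the trypsin-like site, stood at 61 and 37 against 116 and 74 FPKM, which missed the threshold (0.95 ± 0.31, limma, adjusted p = 0.051). Processed copies of Psmb5, Psmb6 and Psmb7 and a second PA28 beta gene, Psme2b, are annotated in the mouse genome; how reads shared with them were counted is not given in the sources used here.

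The cap rose with the core. The ATPase Psmc5 had 17 and 11 FPKM naive and 48 and 52 in papain basophils, a log2 rise of 1.79 ± 0.26 (limma, adjusted p = 0.00233). The scaffold subunit Psmd1 had 10 and 4 against 22 and 24 FPKM (1.69 ± 0.35, limma, adjusted p = 0.01), and the scaffold Psmd2 18 and 11 against 47 and 43 FPKM (1.61 ± 0.25, limma, adjusted p = 0.0032). In each of these 3 genes every papain library was above every naive one. Psmd7, the partner of the deubiquitinase Psmd14, had 16 and 6 against 31 and 43 FPKM (1.78 ± 0.38, limma, adjusted p = 0.0114), and the cap subunit Psmd3 had 12 and 7 against 25 and 36 FPKM (1.60 ± 0.30, limma, adjusted p = 0.00664). The other risen core and cap genes, among them the alpha ring genes Psma2 to Psma6, rose by 0.87 to 1.4 on the log2 scale.

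Of the inducible genes 1 was called. Psmb10 had 16 and 6 FPKM naive and 25 and 33 in papain basophils and rose by 1.45 ± 0.38 (limma, adjusted p = 0.0233). Psmb8 was at 31 and 17 against 51 and 31 FPKM, with an overlap at 31 (0.77 ± 0.44, limma, adjusted p = 0.241), and Psmb9 at 19 and 9 against 23 and 23 FPKM (0.76 ± 0.64, limma, adjusted p = 0.421). Psme1 (110 and 87 against 107 and 169 FPKM) and Psme2 (176 and 107 against 164 and 255 FPKM) overlapped between the groups, with log2 differences of 0.46 and 0.57 near the 0.50 of all genes (limma, adjusted p = 0.167 and 0.153). Under median-ratio scaling the difference for Psme1 was -0.05. None of the 7 assembly chaperones, of the nuclear activators Psme3 and Psme4, or the inhibitor Psmf1 passed.

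How many genes passed in basophils depended on scaling and on single libraries. With median-ratio scaling, quantile normalization and small RNA removal the count was 13, 9 and 17, all higher, while the share of higher among all genes called went from 85.1% to 65.5%, 45.4% and 74.4% and the median of all genes from 0.50 to 0.16, -0.08 and 0.28. It was 12 without naive replicate 2 and 18 to 36 without each of the others, and 0 when only these 4 libraries were fitted (18 at an unadjusted p under 0.05). Psmb5, Psmb6, Psmc5, Psmc6, Psmd1, Psmd2 and Psmd8 passed in each leave-one-out fit and under all 3 scalings.

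Marker sums of 5 other cell types rose with the same contrast. Only lists whose sums rose are given here, so they do not describe foreign RNA of every kind. From naive to papain basophil libraries the summed FPKM of 7 fibroblast markers went from 49 and 5 to 3846 and 1411 (7 of 7 called higher), that of 12 epithelial markers from 6702 and 8771 to 20911 and 35730 (8 of 12), that of 12 macrophage markers from 194 and 55 to 11883 and 440 (3 of 12), and that of 8 neutrophil markers from 264 and 537 to 3215 and 7286 (3 of 8). In papain basophils Scgb1a1 alone had 19550 and 32382 FPKM of the epithelial sums, and Chi3l3 had 10500 and 109 FPKM of the macrophage sums. Endothelial markers went from 50 and 29 to 114 and 349 (6 of 8), and none of the genes of these 5 lists was at 0 in a papain basophil library. Their part in the proteasome result was not tested.

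Proteins that work with the proteasome were read from lists beside the members. Of 14 proteasome-associated genes tested, 10 rose and 0 fell in papain basophils. They included the cap deubiquitinase Usp14 (log2 rise 1.97 ± 0.42), the cap-bound Txnl1 (1.80 ± 0.35), the core maturation factor Pomp (1.45 ± 0.33; 54 and 30 against 136 and 92 FPKM) and the small cap subunit Shfm1 (1.39 ± 0.28). Of 14 genes for ubiquitin, its activating enzymes and the p97 extraction machine, 2 rose, Vcp (p97 itself, 1.5 ± 0.30) and its cofactor Nsfl1c (1.36 ± 0.22). Of 12 genes of MHC class I peptide supply, 4 rose, led by the chaperone Pdia3 (1.63 ± 0.46), and of 20 interferon-stimulated genes 4 rose, led by Irgm1 (2.10 ± 0.61). The medians of these 4 lists were 1.15, 0.50, 0.83 and 1.15, beside 0.50 for all genes.

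Of 15 listed transcriptional regulators of proteasome genes, 3 rose and 1 fell in papain basophils, which like the 4 of 20 interferon-stimulated genes is near the 22.1% of all genes that rose; Irf1 is in both lists. Nfe2l1, the transcription factor that induces proteasome genes when proteasome activity is short, had 19 and 9 FPKM naive and 24 and 52 in papain basophils (1.36 ± 0.44, limma, adjusted p = 0.0484). Its small Maf partner Maff had 19 and 9 against 95 and 191 FPKM (3.26 ± 0.40, limma, adjusted p = 0.00115), and the interferon regulatory factor Irf1 had 28 and 17 against 49 and 107 FPKM (1.69 ± 0.39, limma, adjusted p = 0.0158). Ngly1, the glycanase needed to activate the Nfe2l1 protein, fell from 26 and 18 to 12 and 6 FPKM (-1.25 ± 0.33, limma, adjusted p = 0.0242).

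The promoters of the members were searched for 4 short motifs that such factors are known to bind, because many members moved together in basophils. RefSeq promoter sequences of build GRCm38.p6, which run from 250 bases before to 50 after a start site, were found for 41 of the 49 members (44 promoters). The build differs from the mm9 of the expression files, and none of their coordinates were used. The core letters of the antioxidant response element, TGACNNNGC, to which Nfe2l1 and small Maf proteins bind, were found on either strand in 6 member promoters (13.6%) and in 12.4% of all 32851. Of the genes of those 6, 4 rose in papain basophils, beside 27 of the 48 members tested. Whether the motif and the rise go together was not tested. Shown, picked by that rise, are the 4, read 5′ to 3′ along the gene with the match in capitals. Psmb8 is added for comparison, with a gamma-activated-type match (TTCNNNGAA):
Psmb5: gtgaagttgTGACGTCGCggcgttgcca
Psmb6: taaagagagTGACGGAGCgctttacgac
Psmc6: cagccagtaGCTAAGTCAggcattgctc
Psmd12: tctGCTGTGTCAcatttgcccccctcag
Psmb8: cctccgctgTTCCCAGAAgatgcccccc

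The windows lie at chr14:54618024-54618051 (Psmb5, minus strand, match at -47 to -39), chr11:70525339-70525366 (Psmb6, plus strand, -9 to -1), chr14:45329588-45329615 (Psmc6, plus strand, -227 to -219), chr11:107479278-107479305 (Psmd12, plus strand, -247 to -239) and chr17:34198089-34198116 (Psmb8, plus strand, -97 to -89), with positions counted from the start site. In Psmc6 and Psmd12 the match is on the strand opposite to the gene. The CCAAT box was in 34.1% of member promoters and 37.4% of all, the interferon-response-type motif, GAAA spaced by NN from another GAAA, in 5 (11.4%) and 3.44% of all, and TTCNNNGAA in 3 (6.82%) and 8.3% of all. The 5 with the interferon-response-type motif were Psmb3, Psmd4, Psmd9, Psme1 and Psmg4, with no immunoproteasome catalytic gene among them. The 3 with TTCNNNGAA were Psmb8, Psmd2 and Psmg1, without Psmb9 and Psmb10. The motifs were searched on both strands and their matches may overlap. A match is a description of letters and not a site. Psmb9 and the peptide transporter gene Tap1 start 226 bases apart on chromosome 17 in opposite directions. In NH cells Tap1 had 17 and 12 FPKM naive and 23 and 25 after papain, beside 20 and 15 and 28 and 32 for Psmb9. In basophils Tap1 had 13 and 6, then 15 and 19 FPKM, beside 19 and 9, then 23 and 23 for Psmb9. In eosinophils Tap1 had 22 and 16 naive, 11 and 15 in CD11c- and 14 and 18 in CD11c+ cells. Psmb9 had 15 and 13, then 10 and 19, then 18 and 3 there. Whether the 2 genes go together was not tested.

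**Figure D2:**
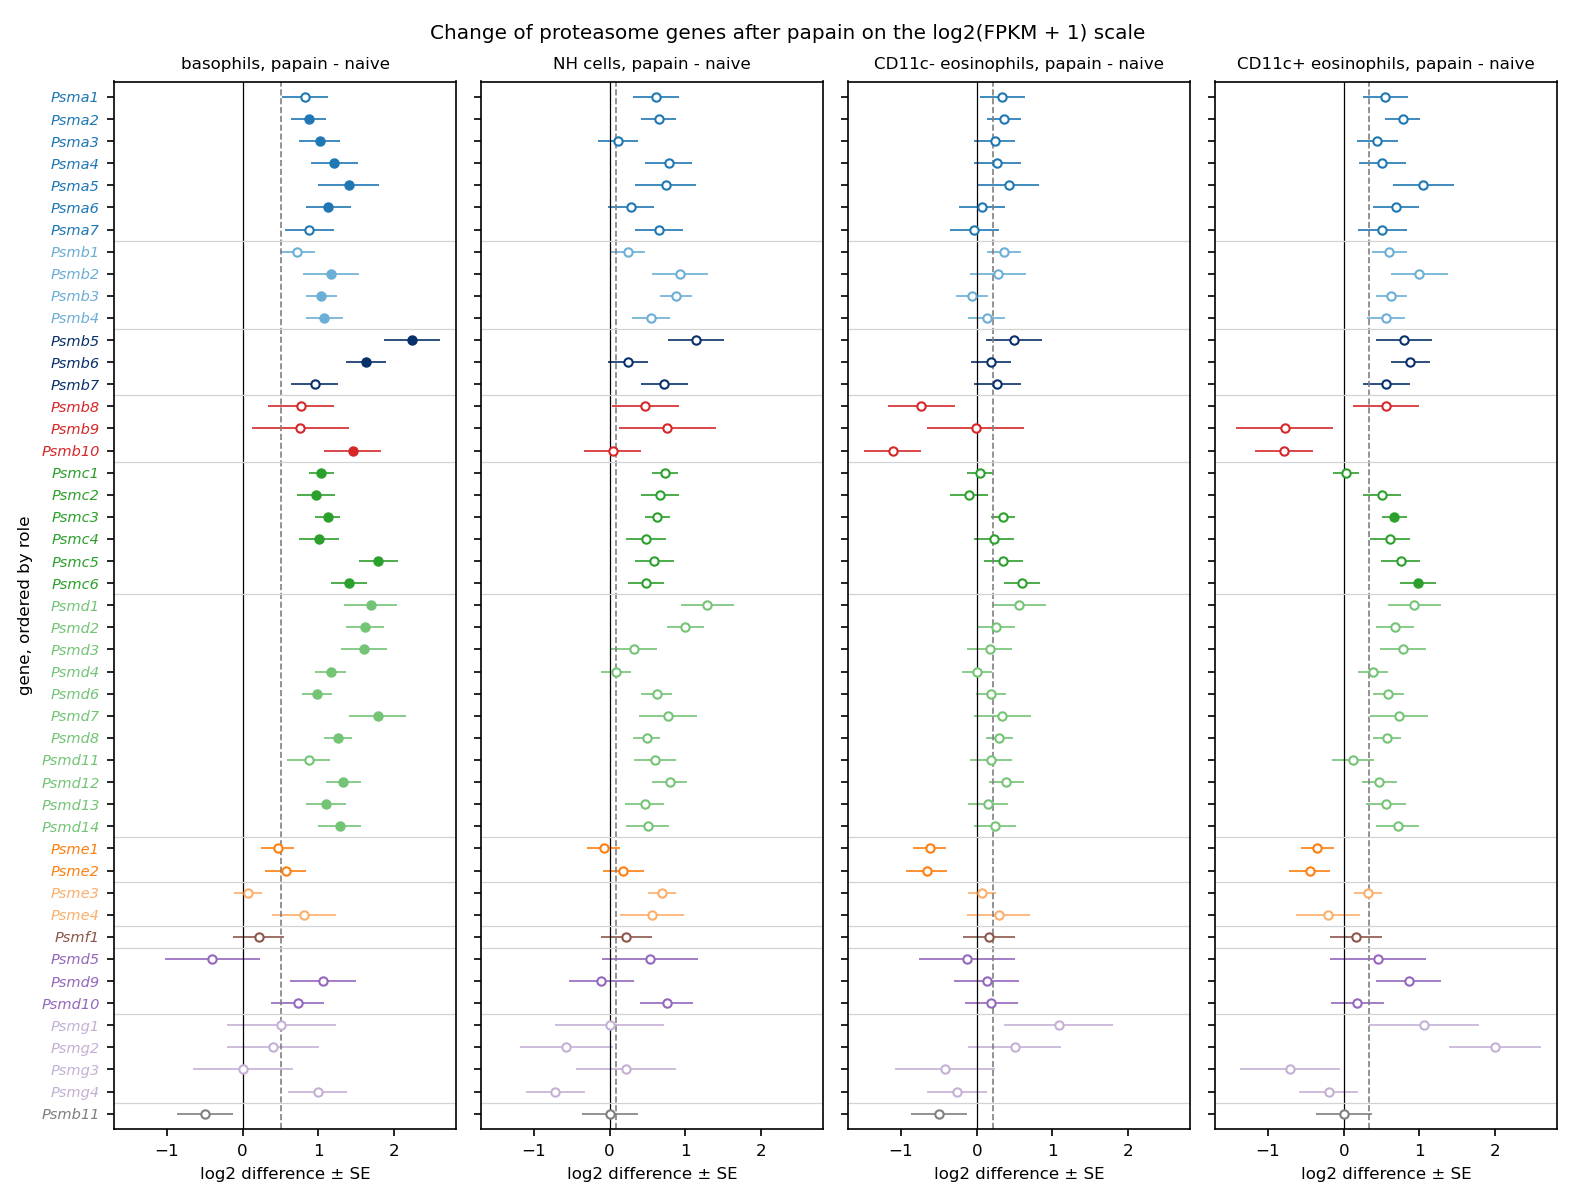
Log2 difference, papain minus naive, of each expressed gene but Psmc3ip (rows by role) with its SE (bars) in 4 comparisons; filled circles passed the adjusted threshold, and the dashed line is the median of all genes. In basophils 27 circles are filled, in NH cells and CD11c- eosinophils none, and in CD11c+ eosinophils 2.

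In NH cells the same roles had higher values after papain, but 0 of 48 genes passed (limma; 15 at an unadjusted p under 0.05), where 0.54% of all genes rose and 0.245% fell. The 15 became 6 under median-ratio scaling, 7 under quantile normalization, and 7 without naive NH replicate 1 or papain NH replicate 2. All 31 core and cap genes were higher by value. The median log2 difference was 0.55 over the members and 0.09 over all genes, and it lay above that of all genes in all 11 alternative fits, by 0.18 to 0.66. In 33 genes the groups did not overlap with papain higher, against 26.1% of all genes.

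Psmd1 had the largest difference, with 8 and 8 FPKM naive and 20 and 22 in papain NH cells (1.29 ± 0.35, limma, adjusted p = 0.176). Psmb5 had 24 and 28 against 56 and 61 FPKM (1.14 ± 0.37, limma, adjusted p = 0.263) and Psmd2 17 and 23 against 36 and 46 FPKM (1.00 ± 0.25, limma, adjusted p = 0.147). In these 3 genes every papain library was above every naive one. The difference for Psmb6, at 37 and 49 against 48 and 53 FPKM, was 0.24 ± 0.26 and had the opposite sign under median-ratio scaling and quantile normalization. Psmb8 stood at 40 and 44 against 57 and 60 FPKM (0.47 ± 0.44), Psmb9 at 20 and 15 against 28 and 32 (0.76 ± 0.64), and Psmb10 at 18 and 16 against 17 and 18 (0.04 ± 0.38). Psme1 had 133 and 130 against 120 and 129 FPKM, and Psme2 78 and 97 against 93 and 104. Psmb7 had 47 and 71 against 88 and 104 FPKM (0.72 ± 0.31, limma, adjusted p = 0.441). Naive and papain libraries did not overlap in Psmb5, Psmb7, Psmb8 and Psmb9 and overlapped in Psmb6 and Psmb10. The differences for Psmb10 and Psme2 also had the opposite sign under both of those scalings.

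Of the listed partners in NH cells, 0 of 14 proteasome-associated, 0 of 14 ubiquitin and p97, 0 of 12 MHC class I and 0 of 20 interferon-stimulated genes passed (limma; 1, 3, 4 and 1 at an unadjusted p under 0.05). The signal transducer Stat3 was the only one of 15 regulators that passed, with 52 and 45 FPKM naive and 153 and 172 in papain NH cells (1.72 ± 0.30, limma, adjusted p = 0.0386). The small RNA share, given above, was lower in papain NH libraries than in naive ones. With small RNA genes left out and totals equalised, the members' median was 0.52 and that of all genes 0.07. No gene of the fibroblast, epithelial, endothelial, macrophage or neutrophil lists was called in this comparison.

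The 3'UTRKO papain NH library had lower values than the other papain NH cells for most proteasome genes. Of 48 genes, 44 lay below both of the other papain NH libraries, where 37.7% of all genes did, and 1 lay above both, where 20.1% did. Psmf1 was equal, at 6 FPKM in each. By limma 0 passed (13 at an unadjusted p under 0.05, 5 under median-ratio scaling or quantile normalization, and 8 and 2 without papain NH replicate 1 and 2), where 0.21% of all genes were called higher and 0.358% lower. The median log2 difference was -0.57 over the members and -0.07 over all genes. Psmb5 was at 26 FPKM against 56 and 61 in the other papain NH libraries (-1.14 ± 0.45, limma, adjusted p = 0.473), Psmd2 at 20 against 36 and 46 (-0.99 ± 0.31, limma, adjusted p = 0.33) and Psmb4 at 54 against 97 and 108 (-0.91 ± 0.31, limma, adjusted p = 0.352). Psmb8 was at 44 against 57 and 60 FPKM, Psmb6 at 41 against 48 and 53, and Psme1 at 119 against 120 and 129. The log2 differences of the other catalytic and PA28 genes were -0.62 for Psmb7, -0.63 for Psmb9, -0.30 for Psmb10 and -0.48 for Psme2, none past the threshold. With only the compared groups fitted, 6 genes passed, 1 higher and 5 lower. As the group is 1 library, its spread was taken from the other groups, and genotype and library cannot be told apart. The small RNA share of this library was 17.7%, between those of naive and papain NH cells, and its epithelial markers summed to 4536 FPKM, against 738 and 2085 in the other papain NH libraries. Scgb1a1 alone gave 4273 FPKM of that sum, against 681 and 1921. The part of the small RNA share and of these markers in the result was not tested.

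In eosinophils the 2 papain sorts share the same naive libraries as controls, so their values stand side by side. The core and cap genes had a median log2 difference of 0.25 in CD11c- and 0.61 in CD11c+ papain eosinophils, where the medians of all genes were 0.21 and 0.34. In CD11c- cells 0 of 48 genes passed (limma; 4 at an unadjusted p under 0.05), with 1.87% of all genes called higher and 0.372% lower. In CD11c+ cells 2 of 48 rose and 0 fell, with 9.93% and 2.2% of all genes. These were the ATPases Psmc6, with 25 and 31 FPKM in naive and 48 and 65 in CD11c+ cells (0.98 ± 0.24, limma, adjusted p = 0.033), and Psmc3, with 23 and 24 against 39 and 37 FPKM (0.67 ± 0.16, limma, adjusted p = 0.0296). Neither passed under median-ratio scaling, quantile normalization or small RNA removal, nor with only the compared groups, nor without either naive eosinophil library or CD11c+ replicate 2. Without CD11c+ replicate 1, Psmc6 still passed. In the CD11c- libraries Psmc6 was at 38 and 48 FPKM and Psmc3 at 26 and 35.

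In eosinophils the constitutive catalytic genes had higher mean values after papain, though not all of them beyond the shift of all genes. Psmb5 had 39 and 43 FPKM in naive, 53 and 63 in CD11c- and 58 and 89 in CD11c+ cells (0.49 ± 0.37 and 0.80 ± 0.37). Psmb6 had 36 and 37 FPKM in naive, 37 and 47 in CD11c- and 64 and 72 in CD11c+ cells (0.19 ± 0.26 and 0.88 ± 0.26). Psmb7 had 73 and 64, then 73 and 94, then 99 and 104 FPKM. The 3 differences were above 0 in both papain sorts without passing the test, and in CD11c- cells that of Psmb6 was -0.04 under median-ratio scaling. In CD11c- cells Psmb6 and Psmb7 met the naive libraries at 37 and 73 FPKM. Minus the median of all genes, their differences there were -0.02 and 0.07.

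Psmb10 had 51 and 40 FPKM in naive eosinophils, 18 and 23 in CD11c- and 22 and 30 in CD11c+ cells. Both papain sorts were below both naive libraries, by -1.11 ± 0.38 (limma, adjusted p = 0.21) and -0.79 ± 0.38 (limma, adjusted p = 0.208), neither past the threshold. Psmb8 had 41 and 35, then 18 and 28, then 36 and 88 FPKM, so the CD11c+ libraries differed 2.4-fold between themselves. Psmb9 had 15 and 13, then 10 and 19, then 18 and 3 FPKM, and the library with the most Psmb8 had the least Psmb9.

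The 2 PA28 genes were lower by value in both papain sorts. Psme1 had 141 and 117 FPKM in naive, 81 and 85 in CD11c- and 107 and 95 in CD11c+ cells (-0.62 ± 0.22, limma, adjusted p = 0.231; -0.35 ± 0.22, limma, adjusted p = 0.349). Psme2 had 174 and 155, then 101 and 106, then 119 and 121 FPKM (-0.66 ± 0.27, limma, adjusted p = 0.297; -0.45 ± 0.27, limma, adjusted p = 0.314). In both genes every papain library lay below both naive ones, and the differences kept their sign in all 11 alternative fits of each sort. In CD11c- cells 15 of 48 genes had papain above naive without overlap, against 27.8% of all genes, and 6 of 48 below, against 9.41%, which is near that background. The 6 were Psmb8, Psmb10, Psme1, Psme2 and the chaperones Psmg3 and Psmg4.

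Some other genes of MHC class I supply were lower there too. In the CD11c- sort Pdia3, Calr, Canx and Erap1 were higher by value than in naive eosinophils, with Pdia3 going from 29 and 43 to 53 and 72 FPKM. In CD11c- eosinophils 2 of 12 fell, the peptide editor Tapbp from 124 and 121 to 61 and 52 FPKM (-1.11 ± 0.23, limma, adjusted p = 0.0428) and the class I heavy chain H2-D1 from 1846 and 1379 to 889 and 777 FPKM (-0.94 ± 0.19, limma, adjusted p = 0.0402). The median of the 12 was -0.54, beside 0.21 for all genes. In CD11c+ eosinophils H2-D1 fell to 924 and 921 FPKM (-0.79 ± 0.19, limma, adjusted p = 0.0296) and Pdia3 rose by 1.82 ± 0.46. Maff rose in both sorts, by 2.09 ± 0.40 and 3.02 ± 0.40. Of the 14 proteasome-associated genes, 0 passed in CD11c- cells (limma; 1 at an unadjusted p under 0.05) and 2 rose in CD11c+ cells, the deubiquitinase Uchl5 (1.62 ± 0.32) and the ubiquitin shuttle Rad23b (0.95 ± 0.22).

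Fibroblast markers summed to 7 and 23 FPKM in naive eosinophils, 1074 and 875 in CD11c- and 2343 and 2253 in CD11c+ cells (6 of 7 and 7 of 7 called higher), and epithelial markers to 729 and 1825, then 6672 and 9135, then 10107 and 8531 (2 of 12 and 5 of 12). Scgb1a1 alone had 690 and 1771, then 5044 and 8407, then 8503 and 7483 FPKM of the epithelial sums. Macrophage markers summed to 518 and 813, then 747 and 535, then 1438 and 1569 (0 of 12 and 5 of 12 called higher), and 7 T cell markers to 1 and 1, then 16 and 89, then 80 and 79 (0 of 7 and 1 of 7). None of the fibroblast, macrophage and T cell markers was at 0 in a papain eosinophil library. The part of these markers in these differences was not tested.

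Between the papain eosinophil sorts, CD11c+ cells had 29 of 31 core and cap genes higher by value than CD11c- cells, with a median over all members of 0.38 beside 0.00 for all genes. By limma 0 of 48 passed (5 at an unadjusted p under 0.05), with 0.0281% of all genes called higher, 0.0281% lower and 0.0561% in all. In 25 genes the sorts did not overlap with CD11c+ higher, and in 0 lower, against 20.8% and 9.01% of all genes. Psmb3, a structural beta subunit, had 43 and 52 FPKM in CD11c- and 85 and 70 in CD11c+ cells (0.69 ± 0.21, limma, adjusted p = 0.479). The differences were 1.29 ± 0.44 for Psmb8, 0.69 ± 0.26 for Psmb6, 0.31 for Psmb5, 0.29 for Psmb7, 0.32 for Psmb10, -0.77 for Psmb9, 0.28 for Psme1 and 0.21 for Psme2, none past the threshold. With small RNA genes left out and totals equalised the members' median was 0.07, and without CD11c+ replicate 1, 1 gene passed.

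**Figure D3:**
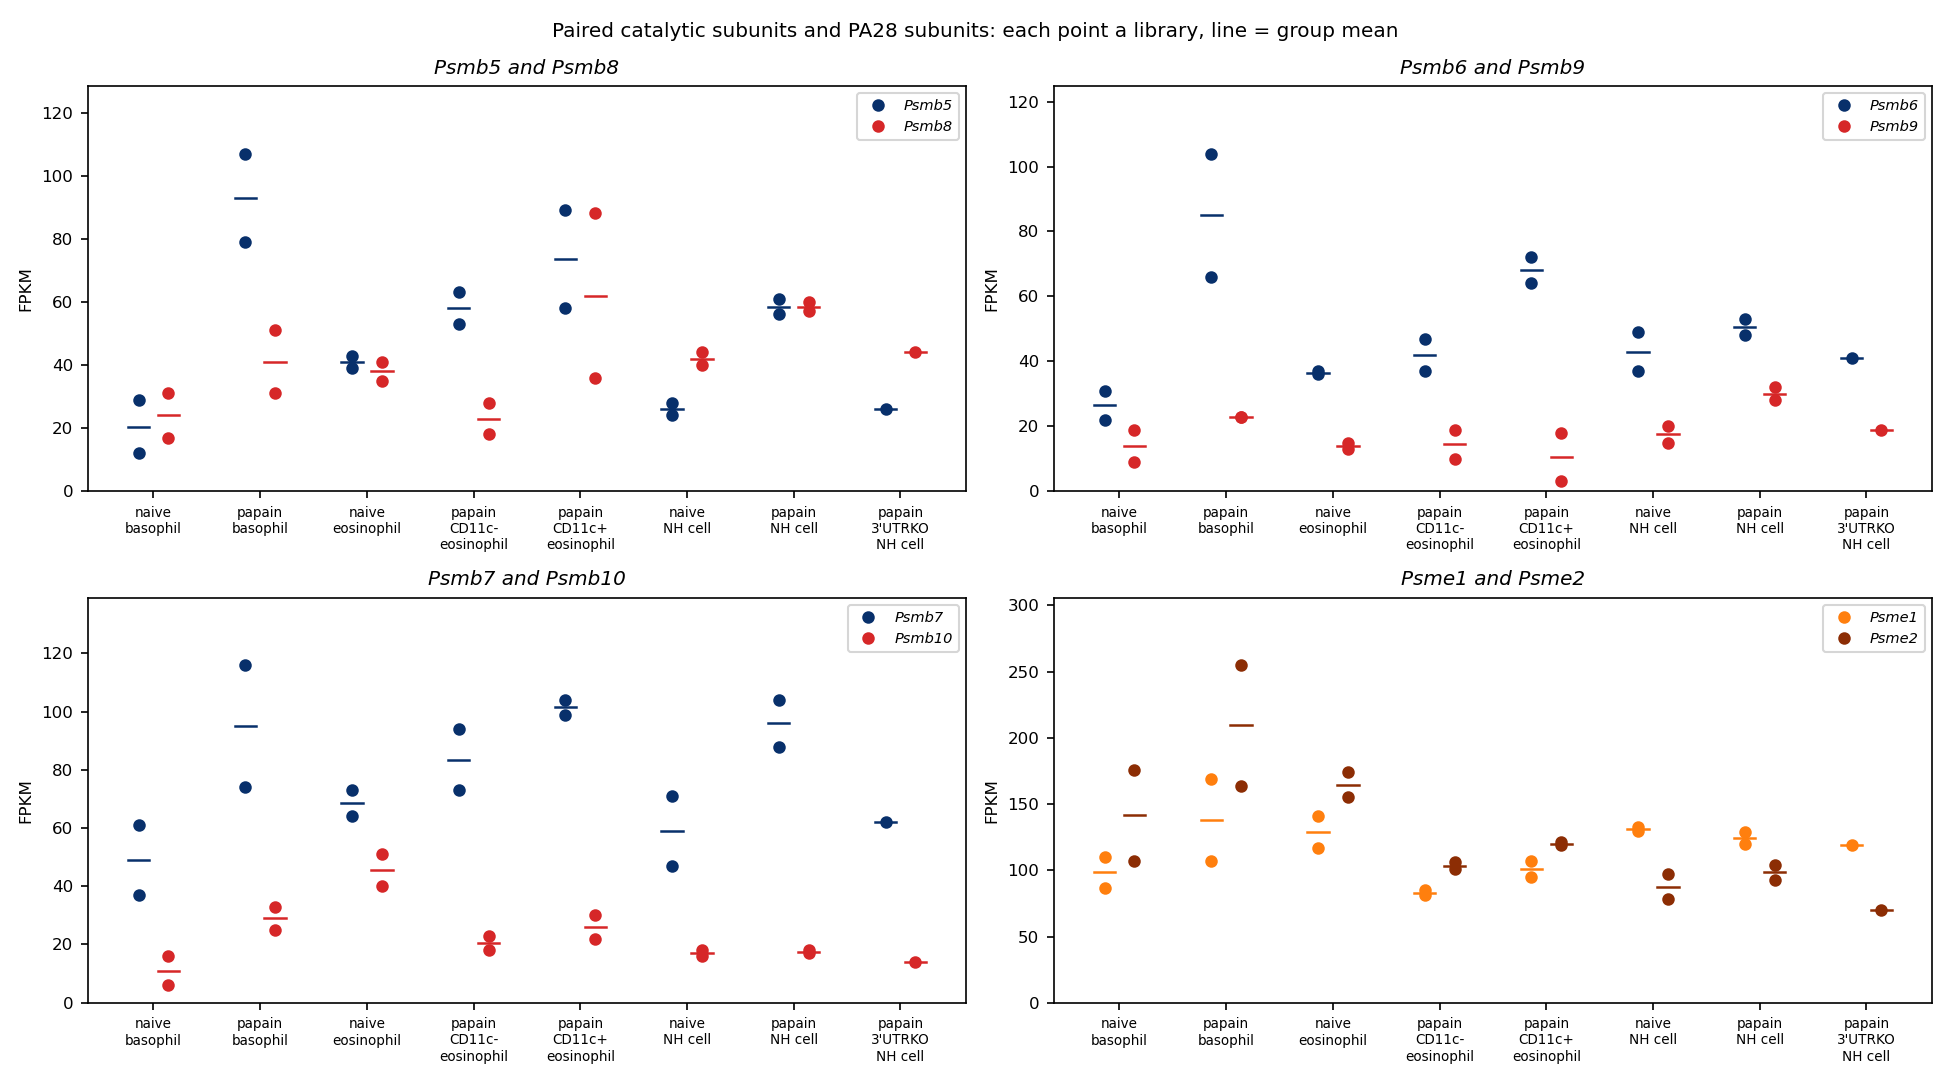
FPKM of each constitutive catalytic gene with its immunoproteasome counterpart, and of both PA28 genes, in the 8 groups; each point is a library and each line a group mean. Psmb5 and Psmb6 reach 107 and 104 in papain basophils, Psmb10 is highest in naive eosinophils at 51 and 40, and Psme2 lies below Psme1 in the 5 NH libraries only.

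The summed share of immune catalytic RNA was lower after papain in basophils and eosinophils, but not every catalytic pair had a lower ratio. Psmb8, Psmb9 and Psmb10 made up 35.3% and 31.1% of the FPKM of the 6 catalytic genes in naive basophils and 23.2% and 28.4% in papain basophils. In eosinophils the share was 42.0% and 37.9% naive, 22.0% and 25.6% in CD11c- and 25.6% and 31.4% in CD11c+ papain cells. In NH cells it was 41.9% and 33.6% naive, 34.7% and 33.5% after papain, and 37.4% in the 3'UTRKO library. Papain and naive shares did not overlap in basophils and in both eosinophil sorts and overlapped in NH cells. These shares were not tested and do not depend on scaling between libraries. With 2 libraries against 2, an exact two-sided permutation test cannot go below 0.333.

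**Figure D4:**
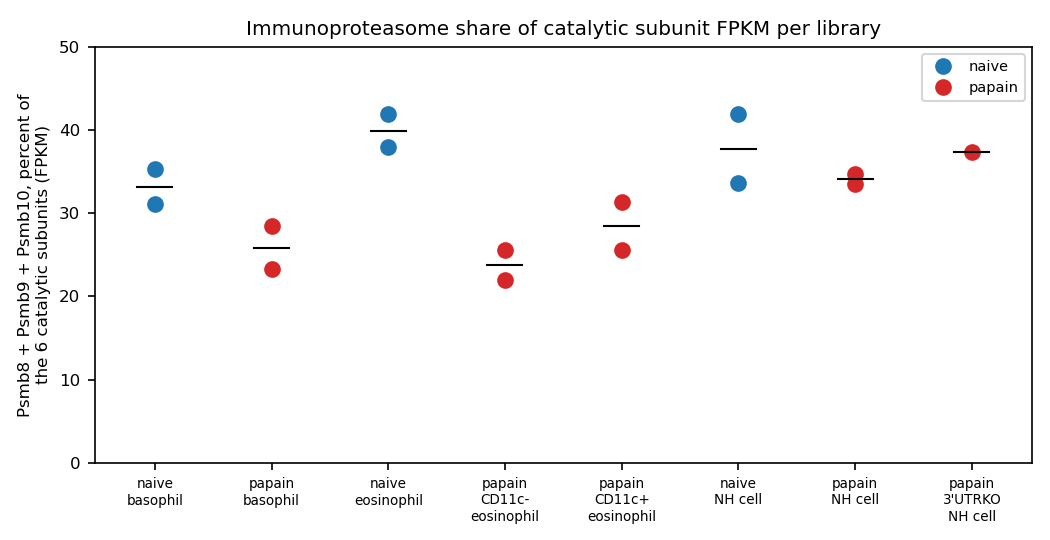
Psmb8, Psmb9 and Psmb10 as a percent of the FPKM of the 6 catalytic genes, per library (points) with the group mean (line), blue for naive and red for papain. Naive eosinophils are at 42.0% and 37.9% and the 4 papain eosinophil libraries between 22.0% and 31.4%.

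The ratio of Psmb8 to Psmb5, which compete for the same place in the core, was 1.07 and 1.42 in naive and 0.477 and 0.392 in papain basophils. In NH cells it was 1.67 and 1.57 naive, 1.02 and 0.984 after papain and 1.69 in the 3'UTRKO library. In eosinophils it was 1.05 and 0.814 naive, 0.340 and 0.444 in CD11c- and 0.621 and 0.989 in CD11c+ cells, where the last library overlapped the naive ones. The pair of Psmb9 and Psmb6 separated the groups in basophils and overlapped in CD11c- eosinophils. Its ratio was 0.613 and 0.409 in naive against 0.221 and 0.349 in papain basophils. In eosinophils it was 0.417 and 0.351 naive, 0.270 and 0.404 in CD11c- and 0.281 and 0.0417 in CD11c+ cells, and in NH cells 0.541 and 0.306 naive and 0.583 and 0.604 after papain. The pair of Psmb10 and Psmb7 did not follow the others in basophils, where its ratio was 0.262 and 0.162 naive and 0.216 and 0.446 after papain, with overlap. In eosinophils that ratio was 0.699 and 0.625 naive and between 0.222 and 0.289 in the 4 papain libraries, and in NH cells 0.383 and 0.225 naive and 0.193 and 0.173 after papain.

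PA28 was also read as a share of the whole set. PA28 alpha and beta together made up 19.3% and 20.2% of the summed FPKM of all members in naive basophils and 10.4% and 18.1% after papain. In eosinophils they made up 17.7% and 16.2% naive and between 8.71% and 11.2% in the papain libraries, and in NH cells 15.7% and 13.8% naive and 10.7% and 10.8% after papain.

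The ratio of the PA28 subunits followed the cell type. Psme2 over Psme1 was below 1 in all 5 NH libraries (0.587 to 0.806), and in all 10 basophil and eosinophil libraries it lay between 1.11 and 1.60. Psme2 was higher in naive eosinophils than in naive NH cells (174 and 155 against 78 and 97 FPKM; 0.91 ± 0.27, limma, adjusted p = 0.0329) and in papain basophils than in papain NH cells (164 and 255 against 93 and 104 FPKM; 1.05 ± 0.27, limma, adjusted p = 0.0276). In naive basophils against naive NH cells it was 0.65 ± 0.27 (limma, adjusted p = 0.121). The eosinophil call did not hold in any leave-one-out fit, nor under quantile normalization, and the papain call held only in the leave-one-out fit without papain basophil replicate 1.

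Naive basophils had lower proteasome levels than naive eosinophils. By limma 8 of 48 genes were lower and 0 higher, where 8.66% of all genes were lower and 5.3% higher, and the median was -0.49 beside 0.00 for all genes. Relative to all genes that median was -0.04 with quantile normalization, where 17 members were higher and 31 lower by value, and -0.17 without naive basophil replicate 2. Psmb10 differed most, with 16 and 6 FPKM in basophils and 51 and 40 in eosinophils (-2.08 ± 0.38, limma, adjusted p = 0.00682). The cap deubiquitinase Psmd14 had 17 and 10 against 30 and 32 FPKM (-1.18 ± 0.28, limma, adjusted p = 0.0253) and the ATPase Psmc1 25 and 19 against 48 and 41 (-0.99 ± 0.17, limma, adjusted p = 0.00602). The others were Psmc5, Psmd4, Psmd6, Psmd8 and Psmd13, with differences from -0.72 to -1. The count was 3 with median-ratio scaling, 1 with quantile normalization, 4 with the replicate number as a block, and 0 with only these 4 libraries (12 at an unadjusted p under 0.05) or without naive eosinophil replicate 1. Of the other catalytic and PA28 genes, which did not pass, Psmb5 had -1.09 ± 0.37, Psmb8 -0.70, Psmb7 -0.51, Psmb6 -0.47, Psmb9 -0.08, Psme1 -0.39 and Psme2 -0.26. The count was 2 without naive eosinophil replicate 2 or naive basophil replicate 2, and 14 without naive basophil replicate 1.

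Against naive NH cells, naive basophils had 3 of 48 genes lower and 0 higher (13.6% and 6.96% of all genes), with a median of -0.40 beside -0.34. They were the ubiquitin receptor Psmd4 (30 and 21 against 43 and 58 FPKM, -0.96 ± 0.20, limma, adjusted p = 0.0108), Psmc5 (-0.90 ± 0.26) and the structural beta subunit Psmb1 (65 and 45 against 82 and 117 FPKM, -0.84 ± 0.23). None of these 3 passed under median-ratio scaling, or without naive basophil replicate 2 or naive NH replicate 2, and 10 genes passed without naive basophil replicate 1. Under median-ratio scaling Psme2 was the 1 gene called, 1.04 higher. The other catalytic and PA28 genes did not pass, with -0.84 for Psmb8, -0.72 for Psmb10, -0.68 for Psmb6, -0.45 for Psmb5, -0.37 for Psmb9, -0.28 for Psmb7 and -0.42 for Psme1.

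Naive eosinophils had 5 of 48 genes higher and 1 lower than naive NH cells (11.6% and 16.5% of all genes), with a median of 0.14 beside -0.21. Psmb10 had 51 and 40 against 18 and 16 FPKM (1.36 ± 0.38, limma, adjusted p = 0.0252) and the cap chaperone Psmd10 13 and 13 against 4 and 6 (1.24 ± 0.35, limma, adjusted p = 0.0276). Psme2, Psmc1 (0.84 ± 0.17) and Psmc2 (0.79 ± 0.25) were also higher. Psmb1 was lower, with 56 and 53 against 82 and 117 FPKM (-0.83 ± 0.23, limma, adjusted p = 0.0263). Psmb5 (0.64), Psmb7 (0.24), Psmb6 (-0.22), Psmb8 (-0.14), Psmb9 (-0.29) and Psme1 (-0.03) did not pass. Under quantile normalization 2 genes were higher and 3 lower. Leaving out 1 library left 0 (without naive eosinophil replicate 1) to 3 calls (without naive NH replicate 2), with 1 and 2 without the other naive eosinophil and NH libraries. Psmb10 and Psme2 passed in none of these 4 fits (adjusted p from 0.0626 to 0.139 and from 0.0622 to 0.165, limma), Psmc1 in 3, and Psmd10, Psmc2 and Psmb1 in 1 each.

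The partner lists were read in the naive comparisons as well. Of the 14 proteasome-associated genes, 2 were lower in naive basophils than in naive eosinophils, Pomp (-1.31 ± 0.33) and Shfm1 (-1.08 ± 0.28), and 4 were lower than in naive NH cells, led by the zinc finger protein Zfand5 (-1.65 ± 0.40) and Txnl1 (-1.4 ± 0.35). Of the 12 genes of MHC class I supply, 3 were lower in naive basophils than in naive eosinophils, the light chain B2m (-1.25 ± 0.28), H2-D1 (-0.97 ± 0.19) and Tapbp (-0.93 ± 0.23). Tapbp (1.78 ± 0.23) and H2-D1 (1.33 ± 0.19) were higher in naive eosinophils than in naive NH cells, while 2 of the 12 were lower there. Nfe2l2, the stress-response relative of Nfe2l1, was higher in naive basophils (2.40 ± 0.34) and naive eosinophils (1.4 ± 0.34) than in naive NH cells, and Maff was lower in both (-2.18 ± 0.40 and -2.43 ± 0.40). All of these passed the adjusted threshold in limma.

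Between the papain groups few members were called. Between papain basophils and papain NH cells Psme2 was the only gene of 48 called higher and 0 were lower (12.6% and 7.18% of all genes, 19.7% in all), and the median was 0.12 beside 0.00. Between CD11c- papain eosinophils and papain NH cells 2 of 48 were lower and 0 higher (8.93% and 7.67% of all genes), Psmb3 (43 and 52 against 83 and 92 FPKM, -0.87 ± 0.21, limma, adjusted p = 0.0223) and Psmc3 (26 and 35 against 46 and 48 FPKM, -0.62 ± 0.16, limma, adjusted p = 0.0289). Psmb8 had 18 and 28 against 57 and 60 FPKM there, without passing (-1.34 ± 0.44, limma, adjusted p = 0.0731). The other catalytic and PA28 genes did not pass in either comparison. Psmb5 had 0.64 in basophils and -0.02 in eosinophils against NH cells, Psmb6 0.71 and -0.27, Psmb7 -0.05 and -0.21, Psmb9 -0.37 and -1.06, Psmb10 0.69 and 0.21 and Psme1 0.11 and -0.58, with -0.54 for Psmb8 in basophils and 0.07 for Psme2 in eosinophils. Of the 20 interferon-stimulated genes, 8 were higher in papain basophils than in papain NH cells, led by Isg15 (2.98 ± 0.72) and Ifit3 (2.98 ± 0.85), and 5 of the 12 genes of MHC class I supply were lower in CD11c- papain eosinophils, led by Pdia3 (-1.83 ± 0.46). Isg15 had 42 and 224 FPKM in papain basophils against 11 and 12 in papain NH cells, and Ifit3 had 4 and 24 against 1 and 0. In naive cells Isg15 had 62 and 41 FPKM in basophils and 10 and 19 in NH cells. The calls of Psmb3 and Psmc3 were lost without CD11c- replicate 1 or either papain NH library.

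Whether the papain difference itself varied between cell types was tested as a difference of differences. Basophils against NH cells gave 0 of 48 genes (limma; 10 at an unadjusted p under 0.05), where 4.64% of all genes were higher and 2.12% lower. By value all 31 core and cap genes had the larger difference in basophils, with a median of 0.54 where that of all genes was 0.36. Without naive basophil replicate 2, 30 of the 48 members had the larger and 18 the smaller difference, and the median of all members minus that of all genes ran from -0.15 (without naive NH replicate 2) to 0.28 over the alternatives. Psmb6 came nearest to the threshold of the catalytic genes (1.39 ± 0.36, limma, adjusted p = 0.0571). Without naive basophil replicate 1, 6 genes passed, and without papain basophil replicate 2, 2 did. The other differences were 1.41 for Psmb10, 1.09 for Psmb5, 0.23 for Psmb7, 0.30 for Psmb8, 0.01 for Psmb9, 0.53 for Psme1 and 0.40 for Psme2. CD11c- eosinophils against NH cells also gave 0 (limma; 3 at an unadjusted p under 0.05), where 0.596% of all genes were higher and 0.61% lower, and 40 of 48 genes had the smaller difference in eosinophils. It was -1.20 for Psmb8, -1.15 for Psmb10, -0.84 for Psme2, -0.77 for Psmb9, -0.66 for Psmb5, -0.55 for Psme1, -0.44 for Psmb7 and -0.05 for Psmb6. Basophils against CD11c- eosinophils gave 1 of 48 higher and 0 lower (1.61% and 0.751% of all genes), with a median of 0.94 beside 0.27. That gene was Psmb10, whose papain differences of 1.45 in basophils and -1.11 in eosinophils were 2.56 ± 0.53 apart (limma, adjusted p = 0.0447). The other differences were 1.75 for Psmb5, 1.44 for Psmb6, 0.67 for Psmb7, 1.49 for Psmb8, 0.78 for Psmb9, 1.08 for Psme1 and 1.23 for Psme2, none past the threshold. Without naive basophil replicate 1, 9 genes passed, and without papain basophil replicate 1, 3 did. The call of Psmb10 was lost in 6 of 8 leave-one-out fits, with no filter on low values, with small RNA genes left out, with the replicate block and with only these groups fitted.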

How the data were processed

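The data were 1 deposited table of 21110 genes in 15 RNA-seq libraries of sorted mouse lung cells, made from poly(A)-selected RNA with an amplified NEBNext library per the labels' protocols. Per the submitters' processing notes the tools the authors used include Cufflinks 1.3.0 and TopHat 1.4.0, and mm9 is the build named; annotation, filters and rounding are not given in the sources used here. The values are FPKM that the authors deposited as whole numbers, so they were treated as a rounded score and not as counts. Digit-grouping commas (1008 cells) were removed and 3 values near 0 were set to 0. Groups came from the sample titles.

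Genes at 1 FPKM or more in at least 2 libraries (14257) were tested on log2(FPKM + 1) with limma 3.58.1 in R 4.3.3, with 1 coefficient per group over all 8 groups, 7 residual degrees of freedom, a trended prior, no scaling and Benjamini-Hochberg adjustment at 0.05, in 14 two-sided comparisons. Fold changes on this scale understate the change of low genes, and rounding limits values of a few FPKM. The script was checked on simulated data. Every member may be named; catalytic and PA28 pairs are named in each comparison, beside up to 8 called members per direction where either group averaged at least 5 FPKM, and up to 4 called genes per partner list. The members and lists were chosen with earlier results of these data known. Alternatives were a pseudocount of 5, no filter, median-ratio scaling, quantile normalization, leaving out 492 small RNA genes, fitting only the compared groups, a replicate block and leaving out each library. Promoter sequences are from RefSeq (GRCm38.p6).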

Additional observations from a re-analysis of the deposited data

Results flagged for a closer look

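The papain difference of Psmb10 had opposite signs in basophils and in eosinophils. It rose from 16 and 6 to 25 and 33 FPKM in basophils and stood at 51 and 40 FPKM in naive against 18 and 23 in CD11c- papain eosinophils. The papain differences were 2.56 ± 0.53 apart on the log2 scale (limma, adjusted p = 0.0447 over 14257 genes), and from 1.92 to 3.20 apart over 15 alternative fits. The call was lost with no filter on low values, with small RNA genes left out, with the replicate block and with only these groups fitted. It was also lost in most of the fits that left out a single library. The eosinophil difference by itself was not called (-1.11 ± 0.38, limma, adjusted p = 0.21). Against CD11c+ eosinophils, which share the naive controls, the papain differences were 2.24 apart, which was not tested. The libraries also carried more fibroblast and epithelial marker RNA after papain in both cell types, and the part of these markers was not tested.

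For 2 chaperones of the core, both papain libraries of one group lay above its naive libraries and both of another below. The differences given here involve the CD11c+ sort and were not tested, and the share of all genes with such a pattern was not counted. In basophils Psmg4 was at 18 and 7 FPKM naive and 19 and 29 after papain, and in eosinophils at 13 and 15 naive and 12 and 12 in the CD11c+ papain sort, with papain differences 1.19 apart. Psmg4 also lay below its naive libraries in CD11c- eosinophils, at 11 and 12 FPKM. In NH cells it went from 16 and 19 to 8 and 13 FPKM. It was not called in the tested differences of basophils against NH cells or against CD11c- eosinophils. Psmg2 was at 3 and 3 FPKM in naive and 7 and 31 in CD11c+ papain eosinophils, and at 10 and 15 in naive and 7 and 9 in papain NH cells, with papain differences 2.57 apart. In CD11c- eosinophils Psmg2 was at 3 and 7 FPKM, overlapping the naive libraries.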

How the results depend on the processing

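Read depth is not given and FPKM are whole numbers, which limits the precision of genes at a few FPKM, such as the chaperones. Each group has 2 libraries or 1, and leaving out a library assumes that the lone one varies like the other groups. The cause of the changes below was not tested.

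Counts of members called changed as follows, as higher and lower together. In papain basophils 27 became 13 with median-ratio scaling, 9 with quantile normalization, 17 without small RNA genes and 0 with only the compared groups. In CD11c+ eosinophils 2 higher became 1 lower with median-ratio scaling, and 0 with quantile normalization or without small RNA genes. Naive basophils against NH cells went from 3 lower to 1 higher with median-ratio scaling, and to 5 without small RNA genes. Naive eosinophils against NH cells went from 6 to 5 (2 higher, 3 lower) with quantile normalization. Naive basophils against eosinophils went from 8 to 3 with median-ratio scaling and 1 with quantile normalization. Papain basophils against NH cells went from 1 to 4, 3 and 2 under the 3 scalings. CD11c- papain eosinophils against NH cells went from 2 to 1 with median-ratio scaling, 5 with quantile normalization and 1 without small RNA genes. With only the compared groups fitted, NH cells gave 3, CD11c- eosinophils 1, 3'UTRKO 6, eosinophils minus NH cells 1, and naive basophils against NH cells, naive basophils against eosinophils and papain basophils against NH cells 0 each. The difference between basophils and CD11c- eosinophils fell from 1 to 0 with no filter, without small RNA genes and with only the compared groups.

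Same-numbered libraries did not deviate together. The correlation of deviations between same-numbered libraries of 2 groups ran from -0.15 to 0.12 over 21 pairs of groups (median 0.01, 1 over 0.1). With 2 libraries per group, this check cannot tell whether same-numbered libraries shared mice or a day. With the replicate number as a block, 27 stayed at 27 in basophils, naive basophils against NH cells went from 3 to 1, naive basophils against eosinophils from 8 to 4 and basophils minus CD11c- eosinophils from 1 to 0. Other comparisons stayed within 1.5 times.

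Leaving out 1 library in turn gave 12 to 36 calls in basophils, 0 to 0 in NH cells, in CD11c- eosinophils, in 3'UTRKO and in eosinophils minus NH cells, 0 to 3 in CD11c+ eosinophils, 0 to 1 between eosinophil sorts, 0 to 10 in naive basophils against NH cells, 0 to 3 in naive eosinophils against NH cells, 0 to 14 in naive basophils against eosinophils, 0 to 2 in papain basophils against NH cells, 0 to 2 in papain eosinophils against NH cells, 0 to 6 in basophils minus NH cells and 0 to 9 in basophils minus CD11c- eosinophils. Of 1565 alternative values of 135 named gene and comparison pairs, 138 lost and 25 gained a call. A call could be lost only in the 31 pairs called, so the 138 are not to be read as a share of all 1565. The sign was opposite to the reported one in 69 of these values, from 31 pairs, none of them among the 31 pairs called. For the members' median minus that of all genes, the fits with the block, with only the compared groups and with a library left out were chosen after seeing the data, and its sign held in all of them in papain basophils (0.33 to 0.72) and NH cells (0.18 to 0.66).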
